A study of Mus musculus with 6 samples.

Results

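The 10 genes described here encode enzymes that build or break down sphingolipids. They were picked by gene symbol, and 9 of them (Sptlc1, Sptlc2, Kdsr, Cers2, Cers5, Cers6, Degs1, Sgpl1 and Ugcg) were matched among the 11922 genes counted. Sphk1, which makes sphingosine 1-phosphate, was matched to no row and was not analysed here. RNA was sequenced from splenic CD8+ T cells of 3 C57BL6/J mice, and cells of each mouse were cultured both with water (vehicle) and with 0.25 mM aminoxyacetic acid (AOA), giving 3 libraries per group that carry the mouse number. The labels name no genetic change in the mice and give no age. All cells were activated with anti-CD3/anti-CD28 beads for 72 hours and expanded for another 4 days, with IL-2 at 100 units per ml in both phases, and RNA was taken on day 7. Over all genes, vehicle replicate 2 and AOA replicate 1 stood apart from the other libraries of their groups.

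Sphingolipids are membrane lipids built on a long-chain base. Serine palmitoyltransferase starts their synthesis in the endoplasmic reticulum by joining serine to palmitoyl-CoA, further steps turn the product into ceramide, and ceramide is the branch point to sphingomyelin, glucosylceramide and sphingosine. Phosphorylated sphingosine (sphingosine 1-phosphate, S1P) leaves the pathway for good when S1P lyase cleaves it, and T cells read extracellular S1P through receptors when they leave lymphoid tissue. The first enzyme (Sptlc1 with Sptlc2) and the last (Sgpl1) both work with pyridoxal phosphate (PLP), the cofactor that AOA blocks, so the comparison asks how transcripts around both ends of the pathway, and between them, differed after 7 days of AOA.

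Of the 9 genes, 3 were called different between the groups. Ugcg and Sgpl1 were lower with AOA and Cers5 was higher, while the other 6, among them both serine palmitoyltransferase genes, did not pass the test. With the mouse as a replicate block Cers5 lost its call (adjusted p = 0.0506 by edgeR), which leaves 2 of the 9. A gene is called when its adjusted p is under 0.05 in edgeR's quasi-likelihood test over 11759 genes, and by that rule 53.0% of all genes tested were called, 26.2% as higher and 26.8% as lower. The 33.3% of sphingolipid genes called (22.2% with the block) was below that share over all genes. Without vehicle replicate 2, and likewise without mouse 2 in both groups, 55.6% of the 9 genes were called. Whether their share lay below 53.0% therefore depended on that library. The median log2 fold change of the 9 genes (AOA over vehicle) was 0.046, the value of Cers6, against -0.025 over all genes. It was 0.27 without vehicle replicate 2, -0.021 without vehicle replicate 1 and -0.014 without vehicle replicate 3, so its sign rests on single libraries, and it lay between 0.016 and 0.18 without each AOA library in turn. The ranges of the groups were apart in 4 of the 9 genes (Sptlc1 and Cers5 with AOA on top, Sgpl1 and Ugcg with AOA underneath), against 62.1% of all genes. Levels are given as CPM (the counts of a gene scaled to a fixed library total) on TMM-adjusted library sizes, each error is an SD over 3 libraries, and in bulk cultures fewer cells of a type and less RNA per cell cannot be told apart.

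The stretches just before the annotated starts of the 3 called genes are shown as the sequence upstream of the transcripts that differed. Whether they regulate these genes was not tested. They come from RefSeq on GRCm38.p6, run 5′ to 3′ on the strand of the gene and stop where the gene itself begins, and CpG dinucleotides are in capitals. Ugcg lies at chr4:59189300-59189506 on the plus strand, Sgpl1 at chr10:61147685-61147934 on the minus strand and Cers5 at chr15:99772516-99772765 on the minus strand.
Ugcg: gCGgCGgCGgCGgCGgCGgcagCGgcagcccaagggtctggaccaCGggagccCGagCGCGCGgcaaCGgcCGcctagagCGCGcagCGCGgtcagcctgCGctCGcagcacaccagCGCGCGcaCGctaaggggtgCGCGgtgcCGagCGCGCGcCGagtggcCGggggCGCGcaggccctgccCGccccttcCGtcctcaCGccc
Sgpl1: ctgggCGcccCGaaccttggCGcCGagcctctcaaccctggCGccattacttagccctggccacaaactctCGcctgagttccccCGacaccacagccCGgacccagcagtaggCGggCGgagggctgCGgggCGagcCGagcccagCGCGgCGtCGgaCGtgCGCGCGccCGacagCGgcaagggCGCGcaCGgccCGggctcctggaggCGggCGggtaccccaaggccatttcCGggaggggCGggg
Cers5: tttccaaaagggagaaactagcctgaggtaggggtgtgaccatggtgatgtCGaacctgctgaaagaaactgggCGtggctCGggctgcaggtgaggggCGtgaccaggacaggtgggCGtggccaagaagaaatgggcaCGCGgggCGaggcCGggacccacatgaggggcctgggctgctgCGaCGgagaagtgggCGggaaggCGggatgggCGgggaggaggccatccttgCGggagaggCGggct

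The printed Ugcg stretch held 37 CpG in 207 bases, the Sgpl1 stretch 31 in 250 and the Cers5 stretch 16 in 250, where the median over 32536 RefSeq windows of the 250 bases before a start was 6. Their GC content was 80.7%, 74.8% and 65.6%, against a median of 52.4%. This did not set the called genes apart. The 9 genes have 10 full windows of 250 bases, Cers2 having 2, and 10 of these lay above the median GC content and 9 above the median CpG number. Searched on both strands, CACGTG occurred in 3 of the 10 windows, those of Degs1 and Cers6 and the first of Cers2, against 6.04% of all windows. These 3 windows had 69.6% to 74.8% GC, and no share over windows of like GC content was computed. CCAAT occurred in 4 of the 10 windows against 33.8% of windows, TTTNNCGC in 1 (Sptlc2) against 4.31% and TCACNCCAC in 0 against 1.04%. None of these letters occurred before Ugcg, Sgpl1 or Cers5. The windows of Degs1, Cers6 and Cers2 lie inside the longest annotated extent of their own gene.

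Ugcg (chromosome 4 from 59189507 to 59222833, GRCm38), which encodes the synthase that makes glucosylceramide and so opens the glycosphingolipid branch, changed most. Its level was 756, 690 and 705 CPM in vehicle replicates 1, 2 and 3, and 260, 343 and 258 CPM in AOA replicates 1, 2 and 3. The groups were far apart, and every AOA library was below every vehicle library. The mean of 717 ± 34.5 CPM (SD, n = 3) in vehicle dropped with AOA to 287 ± 48.7 CPM (SD, n = 3), which is 40.0% of it. The log2 fold change was -1.32 (SE 0.16, 95% interval -1.69 to -0.95, adjusted p = 2.35e-04 by edgeR), and AOA was lower in 3 of 3 mice. Of the 9 genes it alone had a log2 fold change of at least 1 in size, a size that 26.2% of all genes reached with a call.

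Sgpl1 (chromosome 10 from 61098642 to 61147684) encodes the PLP-dependent lyase that cleaves S1P to phosphoethanolamine and a fatty aldehyde. It stood at 87.4, 104 and 87.7 CPM with vehicle and at 58.2, 64.6 and 67.3 CPM with AOA. Here too the groups did not overlap, and the gap between them was wider than the spread within either. Vehicle had a mean of 93.0 ± 9.46 CPM (SD, n = 3) and AOA of 63.4 ± 4.69 CPM (SD, n = 3). The log2 fold change was -0.55 (SE 0.13, 95% interval -0.85 to -0.26, adjusted p = 0.00670 by edgeR), and each of the 3 mice went the same way.

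**Figure D1:**
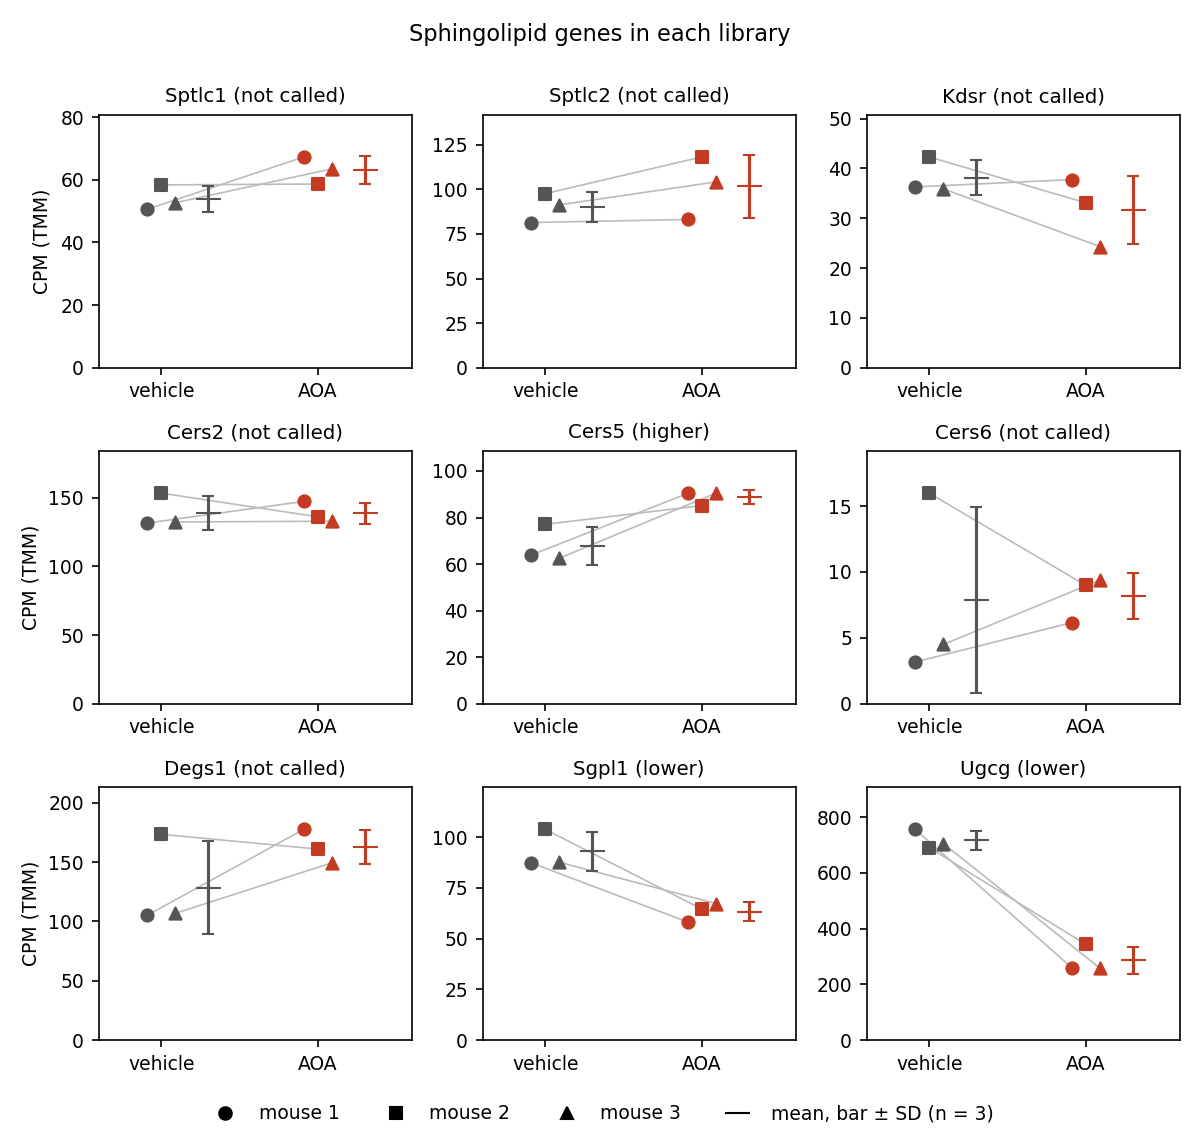
Level of each gene in CPM on TMM-scaled library sizes (y axis, from 0) in the 3 vehicle (grey) and 3 AOA (red) libraries, with 1 symbol per mouse, grey lines joining the cultures of a mouse, and horizontal marks with bars for the mean ± SD. Ugcg falls from 690 to 756 CPM with vehicle to 258 to 343 CPM with AOA, Sgpl1 falls and Cers5 rises with groups apart, and the vehicle library of mouse 2 stands above the other vehicle libraries for Cers6 and Degs1.

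Both subunit genes of serine palmitoyltransferase were expressed in every library. Sptlc1 (chromosome 13 from 53332748 to 53377417), the subunit without the cofactor lysine, was at 50.6, 58.3 and 52.7 CPM with vehicle and 67.3, 58.6 and 63.5 CPM with AOA. The AOA libraries were all above the vehicle libraries, but between mouse 2's cultures the difference was only from 58.3 to 58.6 CPM. The log2 fold change was 0.23 (SE 0.13, 95% interval -0.06 to 0.51, adjusted p = 0.156 by edgeR). Sptlc2 (chromosome 12 from 87305058 to 87388355), which carries the lysine that binds PLP, was at 81.4, 97.6 and 91.4 CPM with vehicle and 83.2, 118 and 104 CPM with AOA. Its groups overlapped, and the log2 fold change was 0.18 (SE 0.16, 95% interval -0.18 to 0.53, adjusted p = 0.370 by edgeR). Neither subunit was called, and both intervals include 0. Per kilobase of transcript, the level of Sptlc2 was 0.617 to 0.665 of that of Sptlc1 with vehicle and 0.474 to 0.773 with AOA, so the ratio spread more between AOA libraries and the groups overlapped.

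Kdsr (chromosome 1 from 106720410 to 106759742) encodes the reductase that follows serine palmitoyltransferase. Its level was 36.3, 42.3 and 35.9 CPM with vehicle and 37.7, 33.1 and 24.3 CPM with AOA. The AOA libraries spread over a wider range that reached into the vehicle range, and the log2 fold change was -0.27 (SE 0.18, 95% interval -0.67 to 0.14, adjusted p = 0.238 by edgeR). Degs1 (chromosome 1 from 182275964 to 182282854), whose enzyme puts the double bond into dihydroceramide to give ceramide, was at 105, 173 and 107 CPM with vehicle and 178, 161 and 149 CPM with AOA. Vehicle replicate 2 was as high as the AOA libraries, while the other vehicle libraries were below all of them. Over all libraries the log2 fold change was 0.34 (SE 0.20, 95% interval -0.12 to 0.80, adjusted p = 0.184 by edgeR). Without vehicle replicate 2 it was 0.65 and passed the test (adjusted p = 0.00283 by edgeR). The ratio of Degs1 to Kdsr per kilobase was 8.27 to 11.7 with vehicle and 13.4 to 17.5 with AOA, and it was higher with AOA in each mouse, by 0.70, 0.25 and 1.05 on the log2 scale in mice 1, 2 and 3. Such ratios of genes are given as descriptions and were not tested.

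Ceramide synthases attach a fatty acid to the long-chain base, and the isozymes prefer different chain lengths, with Cers2 taking very long chains and Cers5 and Cers6 mainly palmitate-length ones. Cers2 (chromosome 3 from 95314771 to 95323599) was at 131, 153 and 132 CPM with vehicle and 147, 136 and 133 CPM with AOA. Its exons overlap those of 2 genes on the opposite strand, by 3.92% and 2.04% of their bases, the only such overlap among the 9 genes. The groups overlapped, and the log2 fold change was -0.0032 (SE 0.13, 95% interval -0.29 to 0.28, adjusted p = 0.986 by edgeR). Cers5 (chromosome 15 from 99735592 to 99772515) was at 63.9, 77.1 and 62.5 CPM with vehicle and 90.4, 85.1 and 90.5 CPM with AOA. All AOA libraries were above all vehicle libraries, with means of 88.7 ± 3.05 CPM (SD, n = 3) and 67.8 ± 8.04 CPM (SD, n = 3), and AOA was higher in 3 of 3 mice. The log2 fold change was 0.39 (SE 0.13, 95% interval 0.09 to 0.68, adjusted p = 0.0324 by edgeR). This call was close to the threshold. With the mouse as a replicate block the log2 fold change stayed at 0.39 with an adjusted p of 0.0506 by edgeR, and the call was also lost without vehicle replicate 1 (0.104), vehicle replicate 3 (0.117), AOA replicate 2 (0.0608) or AOA replicate 3 (0.0969).

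Cers6 (chromosome 2 from 68861145 to 69114284) was the least abundant of the 9 genes and the most variable. With vehicle it had 40, 252 and 83 counts, or 3.17, 16.0 and 4.51 CPM, and with AOA 6.16, 8.99 and 9.38 CPM. Vehicle replicate 2 was the highest of all 6 libraries and the other vehicle libraries were the lowest. The log2 fold change over all libraries was 0.05 (SE 0.52, 95% interval -1.12 to 1.21, adjusted p = 0.948 by edgeR). Without vehicle replicate 2 it was 1.11 and passed the test (adjusted p = 0.00777 by edgeR), and without mouse 2 in both groups it was 1.03 (adjusted p = 0.00755). Within mice, the difference in log2 CPM between AOA and vehicle was 0.93, -0.82 and 1.04 in mice 1, 2 and 3.

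Vehicle replicate 2 had the highest level of the vehicle libraries in 8 of the 9 genes and the lowest in the remaining gene, Ugcg, where over all tested genes it was highest in 42.2% and lowest in 41.3%. Markers of NK cells stood out in the same library, with Klrb1c at 41.7, 111 and 20.1 CPM and Ncr1 at 0, 37 and 0 counts in vehicle replicates 1, 2 and 3, and the part of this in the levels of Cers6 and Degs1 was not tested. Among the AOA libraries, AOA replicate 1 was highest in 4 of the 9 genes and lowest in 3, close to its shares over all genes (43.2% and 39.9%). The fold changes of Ugcg and Sgpl1 depended little on any library. With each library left out they lay between -1.46 and -1.25 for Ugcg and between -0.60 and -0.43 for Sgpl1, and both stayed called.

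**Figure D2:**
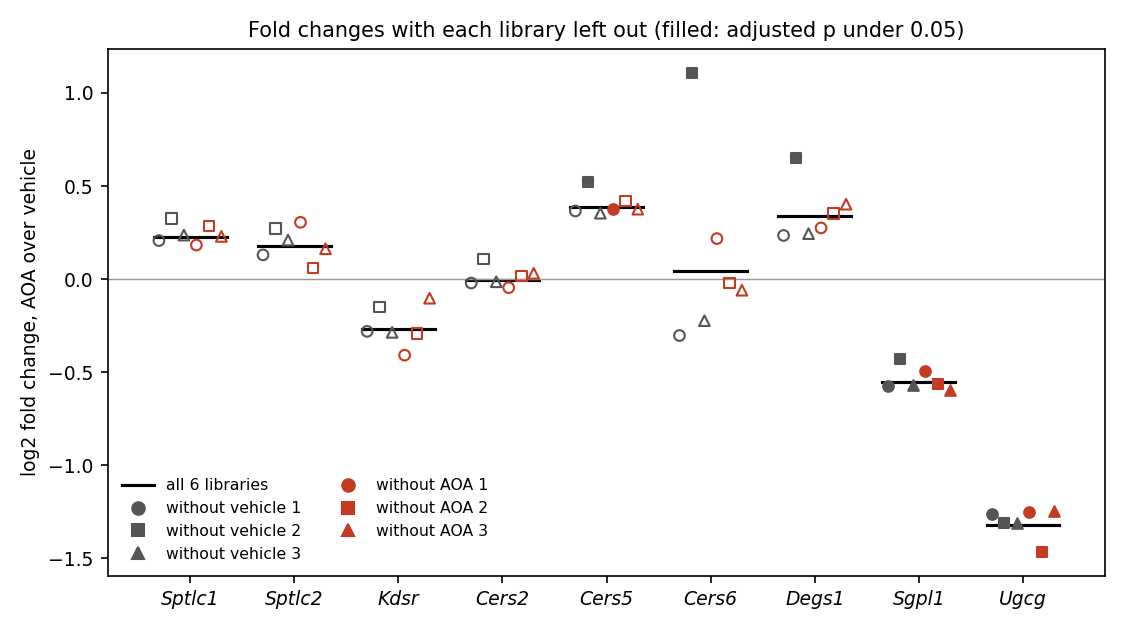
Log2 fold change of AOA over vehicle (y axis) for the 9 genes, from all 6 libraries (black lines) and with each library left out (grey, a vehicle library; red, an AOA library; the symbol gives the mouse), filled where the adjusted p was under 0.05. All 6 points are filled for Ugcg and Sgpl1, while Cers6 and Degs1 are filled only without vehicle replicate 2, at 1.11 and 0.65.

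Compared per kilobase of transcript, Ugcg stood far above the others with vehicle, at 193 ± 9.27 CPM per kb (SD, n = 3). Degs1 (64.1 ± 19.4) and Cers2 (62.2 ± 5.52) came next with overlapping ranges, followed by Cers5 (33.8 ± 4.00). Sgpl1 (22.4 ± 2.28) and Sptlc1 (21.0 ± 1.56) overlapped as well, above Sptlc2 (13.4 ± 1.22), Kdsr (6.67 ± 0.63) and Cers6 (1.12 ± 1.00), all in CPM per kb with SD over 3 libraries. With AOA the order of the levels changed at both places where a called gene had fallen. Degs1, at 81.1 ± 7.07 CPM per kb (SD, n = 3), and Ugcg, at 77.2 ± 13.1 CPM per kb (SD, n = 3), now overlapped, and Sgpl1, at 15.3 ± 1.13 CPM per kb (SD, n = 3), lay below Sptlc1, at 24.6 ± 1.69 CPM per kb (SD, n = 3), and overlapped with Sptlc2.

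The shares of isozymes at the same step were computed per kilobase, after the values of single genes had been seen, and carry no test. Among the 4 ceramide synthases counted, Cers5 made up 30.7%, 32.3% and 30.3% with vehicle and 37.9%, 38.3% and 40.2% with AOA. Cers2 held between 56.8% and 57.7% with vehicle and between 53.0% and 55.6% with AOA. The third, Cers4, held 12.1%, 8.17% and 11.4% with vehicle and 5.75%, 5.52% and 5.65% with AOA, and Cers6 held at most 1.90% in any library. The mixture therefore differed between the groups with no overlap for Cers2, Cers4 and Cers5. Within each library the ratio of Cers5 to Cers2 was 0.526 to 0.559 with vehicle and 0.683 to 0.758 with AOA, while that of Cers6 to Cers2 overlapped between the groups (0.00764 to 0.0330 and 0.0132 to 0.0224). Between the desaturases, the share of Degs1 was 56.5%, 74.4% and 56.7% with vehicle and 86.1%, 85.5% and 83.9% with AOA, the rest being Degs2.

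**Figure D3:**
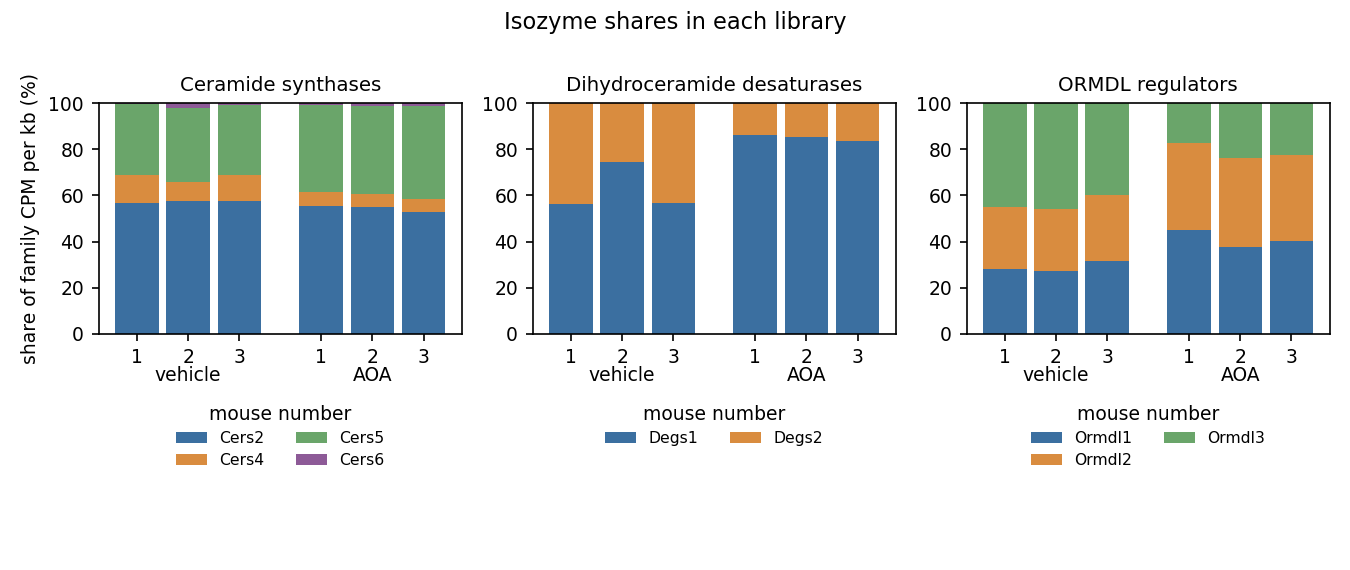
Share of each isozyme in the summed CPM per kilobase of its family (y axis, %) in each of the 3 vehicle and 3 AOA libraries, by mouse number. The Cers5 share is 30.3% to 32.3% with vehicle and 37.9% to 40.2% with AOA, the Degs1 share is at least 83.9% with AOA, and the Ormdl3 share is lower in every AOA library than in every vehicle library.

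The rest of the pathway was described with a list of 71 other sphingolipid genes grouped by role, of which 53 had a row and 52 passed the low-count filter. Of the 52, 12 were higher and 17 lower with AOA, or 55.8% called, close to the 53.0% over all genes, with a median log2 fold change of -0.21. With a log2 fold change of at least 1 in size, 6 were higher and 10 lower, where 26.2% of all genes passed this rule in either direction. Without vehicle replicate 1 the number called higher was 7. Without vehicle replicate 2, which stands apart, 14 were higher and 20 lower. Asah1 and Arsa then lost their calls (adjusted p = 0.0885 and 0.0737 by edgeR), Cptp and B4galt5 were called higher (0.0356 and 0.0411), and S1pr4, Smpd2, B3galt4, Gba2 and Gm2a were called lower (0.0096 to 0.0404). These genes are named after their values were seen.

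Serine palmitoyltransferase is completed by a small activating subunit and held back by the ORMDL proteins, and all 4 tested genes of this group were called, 3 as higher and 1 as lower. Sptssa, the small subunit, was at 38.4, 42.6 and 47.4 CPM with vehicle and 130, 72.2 and 82.8 CPM with AOA, a log2 fold change of 1.15 (SE 0.22, adjusted p = 0.00207 by edgeR). Every AOA library was above every vehicle library, and AOA replicate 1 was the highest. The ORMDL genes moved in opposite directions and are named because of that, after their values were seen. Ormdl1 and Ormdl2 rose by log2 fold changes of 0.67 (adjusted p = 0.0195 by edgeR) and 0.63 (adjusted p = 0.0161), and Ormdl3 fell by 0.92 (adjusted p = 0.00319). Of the summed ORMDL level per kilobase, Ormdl3 made up 45.0%, 45.7% and 39.9% with vehicle and 17.3%, 23.7% and 22.2% with AOA. In GENCODE vM21, Ormdl1 shares 8.72% of its exon bases with Gm28778 on the same strand. The call of Ormdl1 was lost without vehicle replicate 1 or AOA replicate 1, and that of Ormdl2 without either of these or vehicle replicate 3. Of the exon bases of Ormdl2, 66.7% are shared with Dnajc14 on the opposite strand. With the strand setting of the counting not given, the reads of such pairs cannot be told apart.

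The other ceramide synthase and the other desaturase tested both fell. Cers4 went from 46.0, 35.6 and 42.9 CPM to 25.0, 22.4 and 23.3 CPM (log2 fold change -0.82, SE 0.15, adjusted p = 0.00156 by edgeR). Degs2, which also hydroxylates the long-chain base, went from 145, 107 and 145 CPM to 51.3, 48.7 and 51.3 CPM (log2 fold change -1.39, SE 0.15, adjusted p = 1.18e-04). At the desaturase step the transcript of Degs2 thus fell while that of Degs1 was not called. Of the exon bases of Degs2, 10.8% overlap Evl on the opposite strand.

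Ceramidases release sphingosine from ceramide, and of 4 tested 1 was higher, 2 were lower and 1 was not called. The call of Asah1 as lower (adjusted p = 0.0408 by edgeR), named here after its values were seen, was lost in 7 of 14 alternatives. Acer3, an alkaline ceramidase, rose from 5.48, 5.52 and 6.84 CPM to 16.5, 12.4 and 12.5 CPM (log2 fold change 1.21, SE 0.21, adjusted p = 0.00126 by edgeR). Acer2, the Golgi ceramidase, fell from 8.57, 2.35 and 6.84 CPM to 1.70, 1.22 and 2.17 CPM (log2 fold change -1.79, SE 0.46, adjusted p = 0.00969), a call lost without AOA replicate 1 (range of adjusted p over the alternatives 4.75e-05 to 0.0515). Both genes were expressed at low levels.

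Around S1P, Sphk2, the kinase that acts beside Sphk1, was at 57.9, 50.8 and 60.0 CPM with vehicle and 39.9, 47.0 and 50.8 CPM with AOA and was not called (log2 fold change -0.29, SE 0.14, adjusted p = 0.110 by edgeR). Its exons overlap those of Dbp (13% of bases) and Rpl18 (8.97%) on the opposite strand. Among 4 phosphatase genes tested with it, Plpp1, Plpp3 and Sgpp1 (the last named after its values were seen) were higher and Plpp2 was lower. Plpp2 fell from between 13.8 and 17.5 CPM to between 4.34 and 7.72 CPM (log2 fold change -1.40, SE 0.24, adjusted p = 0.00130). Plpp3 had 1, 0 and 7 counts with vehicle and 26, 25 and 31 with AOA, and Plpp1 had 9, 6 and 19 counts with vehicle and 38, 45 and 29 with AOA. The fitted log2 fold changes of 2.97 for Plpp3 (adjusted p = 0.00574) and 1.37 for Plpp1 (adjusted p = 0.0221) rest on these few counts. Over the alternatives the value of Plpp3 ranged from 2.43 to 5.03 and stayed called, and the Plpp1 call was lost in 4 of 13 alternatives (without vehicle replicate 1, AOA replicate 1, AOA replicate 2 or mouse 2). Of the exon bases of Plpp1, 25.8% overlap Mtrex on the opposite strand. A count of 0 in vehicle replicate 2 allows up to 0.190 CPM (3 counts, counting error only).

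Of 3 S1P receptor genes tested, 2 were lower and S1pr4 was not called (log2 fold change -0.37, adjusted p = 0.0807 by edgeR), but was without vehicle replicate 2 (-0.49, adjusted p = 0.0096). S1pr1, the receptor that guides T cells out of lymphoid organs, was at 510, 245 and 575 CPM with vehicle and 224, 189 and 237 CPM with AOA (log2 fold change -1.03, SE 0.28, adjusted p = 0.0126 by edgeR). Vehicle replicate 2 lay near the AOA libraries. Without it the log2 fold change was -1.29, and the call was lost when AOA replicate 1 was left out (adjusted p = 0.0543 by edgeR). S1pr2 fell from 31.0, 25.2 and 27.7 CPM to 10.2, 13.6 and 10.4 CPM (log2 fold change -1.29, SE 0.18, adjusted p = 3.73e-04). Downstream of the lyase, which yields phosphoethanolamine for phosphatidylethanolamine synthesis, 1 of 5 genes was called, Selenoi, with a log2 fold change of 0.81 (adjusted p = 0.00166). It is named as the single call of its group, after its value was seen.

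Of 7 genes of sphingomyelin synthesis and ceramide transport, 1 was higher and 2 were lower. Cerk, the ceramide kinase, fell from 148, 71.5 and 144 CPM to 48.7, 45.3 and 57.0 CPM (log2 fold change -1.27, SE 0.26, adjusted p = 0.00290 by edgeR), with vehicle replicate 2 the lowest vehicle library and still above all AOA libraries. Of 5 sphingomyelinase genes, 1 was higher and 3 were lower. Smpd4, a neutral sphingomyelinase of the nuclear envelope and endoplasmic reticulum, rose from 21.98, 31.1 and 25.1 CPM to 62.1, 82.9 and 85.1 CPM (log2 fold change 1.55, SE 0.18, adjusted p = 1.70e-04). Smpdl3a and Smpdl3b, relatives of the acid sphingomyelinase, fell by log2 fold changes of -1.19 (adjusted p = 0.00424) and -1.76 (adjusted p = 0.0147), the latter losing its call without AOA replicate 1 or AOA replicate 3 and ranging from -2.55 to -1.31 over the alternatives. The call of Smpd1 as lower (adjusted p = 0.0193), named after its values were seen, was lost in 5 of 14 alternatives, and Smpd2, likewise so named, was called only in 4 of 14, the replicate block among them (adjusted p = 0.0461 by edgeR). Of the exon bases of Smpd2, 20.3% overlap Mical1 on the opposite strand.

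On the glycosphingolipid branch that Ugcg opens, 1 of 5 synthesis genes was higher and 1 lower. B4galt5, a lactosylceramide synthase, had a log2 fold change of -0.08 (adjusted p = 0.803 by edgeR) that turned to 0.35 without vehicle replicate 2 (adjusted p = 0.0411). That library held 141 CPM of it, far above the 71.5 and 73.6 CPM of the other vehicle libraries. With the replicate block B3galt4, named here after its values were seen, was also called lower (adjusted p = 0.0497 against 0.0548 without it, by edgeR). St3gal5, the synthase of the ganglioside GM3, had 6, 7 and 4 counts with vehicle and 57, 55 and 50 with AOA, a fitted log2 fold change of 2.84 (SE 0.38, adjusted p = 3.68e-04 by edgeR) from a very low vehicle level of 0.217 to 0.476 CPM. B4galnt1, which makes GM2 and related gangliosides and is named as the other call of its group after its value was seen, fell from 854, 684 and 774 CPM to 388, 479 and 466 CPM (log2 fold change -0.79, adjusted p = 0.00298). Of its exon bases, 20.7% overlap Slc26a10 on the opposite strand. Among 12 lysosomal and other breakdown genes, 1 was higher, 3 were lower and 8 were not called. The call of Arsa as lower (adjusted p = 0.0387 by edgeR), named here after its values were seen, was lost in 10 of 14 alternatives, among them the replicate block (0.0606). Of its exon bases, 18.8% overlap C230037L18Rik on the opposite strand. Galc, the galactosylceramidase, fell from 13.9, 17.8 and 11.0 CPM to 5.33, 5.34 and 3.53 CPM (log2 fold change -1.58, SE 0.26, adjusted p = 9.09e-04), and Neu1, the lysosomal sialidase, from 88.8, 70.1 and 68.6 CPM to 32.6, 34.8 and 23.6 CPM (log2 fold change -1.32, SE 0.18, adjusted p = 3.99e-04).

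**Figure D4:**
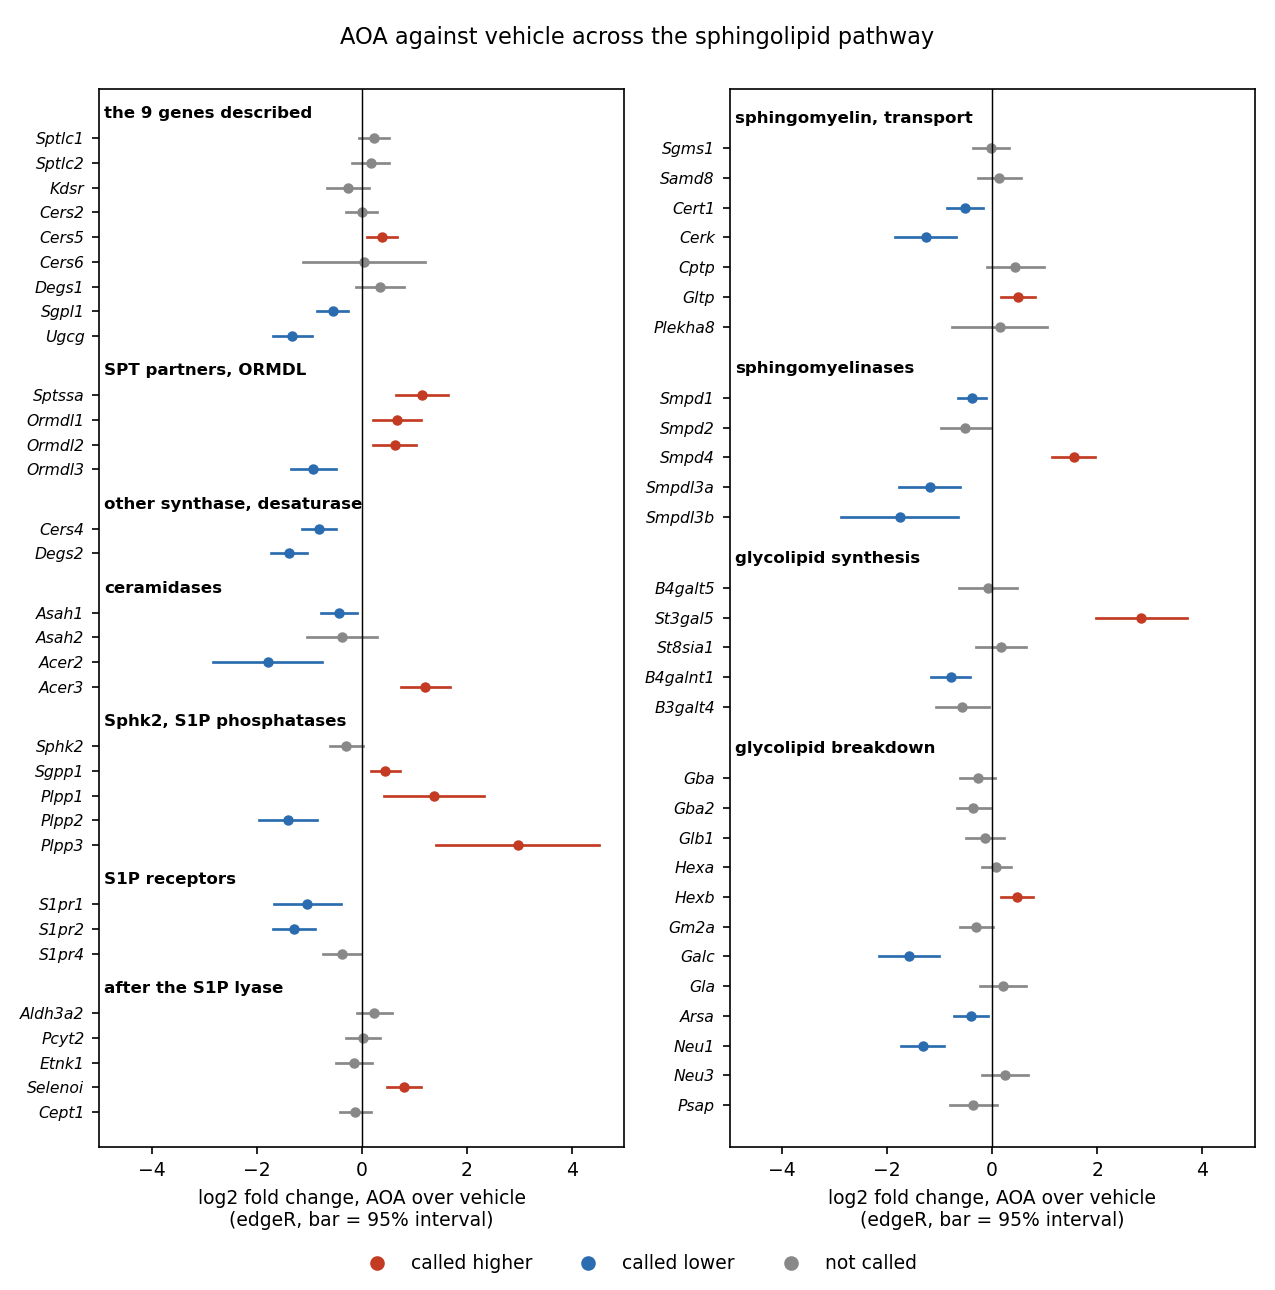
Log2 fold change of AOA over vehicle (x axis) with its 95% interval for the 9 genes and the 52 other tested genes of the pathway, grouped by role, in red where called higher, blue where called lower and grey where not called (edgeR, adjusted p under 0.05). Ugcg at -1.32 and Sgpl1 at -0.55 lie left of 0 and Cers5 at 0.39 right of it, and the pathway holds called genes in both directions in most groups.

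Total counts lay between 12881962 and 18934869 with vehicle and between 18696114 and 21997078 with AOA, and each of the 9 genes had between 40 and 12992 counts in a library. CD8 T cell markers were expressed throughout, with 6 of 6 genes tested and a summed level of 3304 to 4213 CPM with vehicle and 4251 to 4984 CPM with AOA. Of the 6, Cd8a and Cd8b1 were called higher (log2 fold changes 1.03 and 0.64, by edgeR), Cd2 was called lower (-0.61), and Cd3e, Cd3d and Cd3g were not called (-0.27, -0.13 and -0.31). Of 4 CD4 T cell markers, Cd4, Zbtb7b and Cd40lg were called lower with AOA and Foxp3 was not called (log2 fold change 0.36, from 13.3 to 17.1 CPM on average). Their summed level was 158 to 210 CPM with vehicle and 33.0 to 54.3 CPM with AOA. Also lower were the single tested myeloid marker Itgam, also found on activated CD8 T cells, and the single tested NK marker Klrb1c, whose lists summed to 40.8 to 54.2 and 20.1 to 114 CPM with vehicle and to 0.873 to 3.33 and 3.53 to 11.6 CPM with AOA. B cell markers, with 4 of 5 genes counted, summed to 12.6 to 16.6 CPM with vehicle and 22.6 to 30.7 CPM with AOA, with Cd79b the single call. Of the myeloid markers under the low-count filter, Lyz2 had 0, 5 and 0 counts with vehicle and 6, 22 and 2 with AOA, while Cd14 had 13, 16 and 5 with vehicle and 0, 1 and 0 with AOA. None of 4 erythroid markers was matched to a row. Before culture the cells had been isolated with CD8α magnetic beads, a step that removes most cells without this marker. The part of other cells in the results above was not tested.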

How the data were processed

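RNA of 6 cultures of mouse CD8+ T cells was sequenced as stranded messenger RNA libraries with paired-end reads. The authors mapped reads with STAR, kept those that mapped uniquely and deposited whole-number counts per gene, with an Entrez number, symbol and length. The submitters' processing notes name bcl2fastq, STAR, featureCounts, DESeq2 and the build mm10. For the versions of these tools, the annotation, the strand setting and any gene filter, the sources used here give nothing.

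The counts were compared in R 4.3.3 with edgeR 4.0.16 (filterByExpr, minimum count 10, TMM, robust quasi-likelihood test, Benjamini-Hochberg over all 11759 genes kept of 11922). SE is the log2 fold change over the root of its F statistic. Per-kilobase values use the deposited length. A permutation test of single genes cannot go below p = 0.1 with 3 against 3. The labels give both groups the same mouse donors, so the mouse is the pairing, but the main test had no mouse term. Deviations from group means correlated across genes with r = 0.0868, 0.189 and 0.194 within mice 1, 2 and 3. Between cultures of different mice r lay between -0.177 and 0.0350. No replicates of a group were duplicates. Their chi-square per gene was 10.0 for vehicle replicates 1 and 3 and 55.1 and 59.7 for pairs with vehicle replicate 2, and 10.5 for AOA replicates 2 and 3 and 71.1 and 64.6 for pairs with AOA replicate 1, so 1 library of each group stood apart. Alternatives were voom in limma 3.58.1, DESeq2 1.42.0, scaling by median of ratios or by total counts, no filter, at least 10 CPM in 3 libraries, a replicate block, a minimum log2 fold change of 1 and each library left out. Leaving out mouse 2, leaving out each library for the isozyme ratios and shares, and the median over the 9 genes in each refit were added after seeing the data. The steps were tested on simulated data. Coordinates and promoter windows came from RefSeq on GRCm38.p6, matched by Entrez number, and exon overlaps from GENCODE vM21.

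The genes and lists were chosen with earlier results of these data known. All 10 listed genes are described, and of the other pathway genes those called that changed by 1 or more on the log2 scale, up to 5 per group, with Sphk2, Cers4 and S1pr1 in any case. Genes outside this rule are marked as chosen after their values were seen.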

Additional observations from a re-analysis of the deposited data

How the results depend on the processing

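Ugcg and Sgpl1 were called lower in every refit, with log2 fold changes from -1.46 to -1.25 and from -0.60 to -0.43. The number of sphingolipid genes called higher was 1, but 0 with the replicate block, where Cers5 had a log2 fold change of 0.39 with an adjusted p of 0.0506, 3 without mouse 2, and from 0 to 3 with each library left out. The number called lower was 2 in every refit. With a minimum log2 fold change of 1, there were 0 higher and 1 lower (Ugcg), and 6 higher and 10 lower among the other pathway genes. Without that minimum these numbered 12 and 17, with the block 12 and 18, with the 10 CPM filter 9 and 18, and with each library left out from 7 to 14 and from 13 to 20. The other refits gave 11 or 12 higher and from 16 to 18 lower. Cers6 ranged from -0.30 to 1.11, Degs1 from 0.23 to 0.65, Cers5 from 0.35 to 0.52 and Cers2 from -0.046 to 0.11 with each library left out, and without mouse 2 Cers5, Cers6, Degs1 and Cers2 had 0.55, 1.03, 0.66 and 0.12. Cers2 was near 0 and changed sign with median-of-ratios scaling (0.0037), total counts (0.0072), DESeq2 (0.0072) and no filter (0.027). Left-out libraries moved the log2 ratio difference of Sptlc2 over Sptlc1 between -0.23 and 0.12, of Cers6 over Cers2 between -0.039 and 1.02 and of Cers6 over Cers5 between -0.43 and 0.60, and that of the Cers6 share between -0.24 and 0.50 percentage points. The median over the 9 genes lay between -0.021 (without vehicle replicate 1) and 0.27 (without vehicle replicate 2), and was -0.014 without vehicle replicate 3. The block changed no other call of the 9 genes, and among the other pathway genes it changed those of Arsa, Smpd2 and B3galt4. Cers6 had no value with the filter of 10 CPM in 3 libraries. The cause of these shifts was not tested. Counts were lowest for Cers6 among the 9 genes, and Plpp1, Plpp3 and St3gal5 each had under 100 counts in every library.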
